A study of Mus musculus with 20 samples.

Results

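Kap1 sites kept at both ages were the old Kap1 peaks that shared at least 1 bp with a young Kap1 peak in mouse liver. They were chosen by position alone, from the peaks of the old list on chromosomes 1 to 19 that were under 500 bp wide. This left 2991 sites of the 20587 old Kap1 peaks within the same limits, or 14.5%, out of 71056 Kap1 peaks of both ages in all. The sites were described beside the 17596 old Kap1 peaks without a young partner (the old-only peaks) and the 43002 young Kap1 peaks without an old partner (the young-only peaks), with the same limits on width and chromosome.

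The study mapped Kap1, the histone methyltransferase Setdb1 and acetylation of histone H3 at lysine 14 (H3K14ac) by ChIP-Seq in whole livers of wild-type male C57BL/6 mice, to see how marked and bound regions differ between young (3 months) and old (21 months) animals. No treatment or transgene was used. The Kap1 lists each come from 2 pooled livers, and the H3K14ac and Setdb1 lists from 3 pooled livers each, as the labels and methods give it, although legends of the study give a smaller number for both. The lists held 22141 peaks for old Kap1, 48915 for young Kap1, 13877 for old Setdb1, 50583 for young Setdb1, 20463 for old H3K14ac and 19350 for young H3K14ac. A list gives positions only, without height or score, so the depth behind a site is unknown and there is no spread between livers. No difference between ages or between sets of peaks could be tested. The interval beside a share is the 95% Wilson interval of its count and covers the counting alone, because peaks are not replicates and many lie close together. Peaks near marker genes are given as a description only, since the share of all genes with such a peak was not computed. H3K14ac peaks lay within 1 kb of a start site for 3 of 10 hepatocyte markers in the old list (Apoa1, Apoa2 and Apob) and for 4 of 10 in the young list (the same with Tat). They lay there for 0 of 4 leukocyte, 0 of 2 endothelial and 0 of 2 cholangiocyte markers at both ages, and in the young list for 1 of 2 stellate markers (Reln) and 1 of 3 neuronal markers (Syt1), so these peaks do not single out hepatocytes. Whole liver mixes these cell types, and a peak cannot be assigned to one of them.

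Kap1, the product of Trim28, does not bind DNA itself. It is brought to chromatin by KRAB zinc finger proteins and serves as a scaffold for Setdb1, which methylates H3K9 and so helps to silence endogenous retroviruses, imprinted alleles and clusters of zinc finger genes. Zfp57, one such zinc finger protein, reads a methylated hexamer, TGCCGC, at imprinting control regions.

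The sequences of sites that hold a motif discussed here are given first. Those with the Zfp57 hexamer are shown because kept sites held it more often than the other Kap1 peaks, also at the same width. Each is the forward strand of GRCm38, read 5′ to 3′ from the reference, and capitals mark the hexamer on either strand, TGCCGC or GCGGCA. They were taken from sites without a second copy in the genome and outside UTRs. Their order is by number of matches and then along the genome, and all are 150 bp wide. A 312 bp intergenic site on chromosome 3 (106144066 to 106144377), with 1 hexamer and no second copy, comes before the last of them in this order but is not shown.
Soga3 exon (chr10:29147443-29147592): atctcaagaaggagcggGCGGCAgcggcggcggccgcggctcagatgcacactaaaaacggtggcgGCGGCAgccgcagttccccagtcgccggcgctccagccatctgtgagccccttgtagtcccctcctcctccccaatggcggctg
Zfp648 last exon (chr1:154205123-154205272): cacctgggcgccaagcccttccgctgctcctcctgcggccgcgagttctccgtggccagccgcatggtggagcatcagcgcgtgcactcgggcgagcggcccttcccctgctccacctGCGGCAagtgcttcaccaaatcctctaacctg
Chromosome 1 intergenic site (chr1:195253443-195253592): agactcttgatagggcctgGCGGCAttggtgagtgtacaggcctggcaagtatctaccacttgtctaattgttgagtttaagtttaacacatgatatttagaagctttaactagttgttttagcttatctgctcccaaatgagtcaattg
Ptprj start site (chr2:90470261-90470410): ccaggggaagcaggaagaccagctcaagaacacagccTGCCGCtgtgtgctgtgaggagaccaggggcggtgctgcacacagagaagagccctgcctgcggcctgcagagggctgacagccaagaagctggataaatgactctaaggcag
Chromosome 2 intergenic site (chr2:111088164-111088313): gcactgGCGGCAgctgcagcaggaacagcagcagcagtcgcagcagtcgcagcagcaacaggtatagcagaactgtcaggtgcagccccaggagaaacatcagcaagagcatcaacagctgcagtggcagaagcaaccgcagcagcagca
Chromosome 3 intergenic site (chr3:106187245-106187394): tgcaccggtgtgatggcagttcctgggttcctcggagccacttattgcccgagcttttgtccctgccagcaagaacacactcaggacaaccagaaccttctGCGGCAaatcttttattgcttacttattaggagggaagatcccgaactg

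The Soga3 site held 2 hexamers and also carried a young Setdb1 peak. The Zfp648 site lay in the last exon of a zinc finger gene, and the chromosome 3 site carried an old H3K14ac peak. Apart from the Soga3 and chromosome 3 sites, none of the 6 carried H3K14ac or Setdb1 at either age.

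The linker between neighbouring fingers of C2H2 zinc finger proteins is commonly the peptide TGEKP, and the capitals of the next sequence mark its codons, read on the reverse strand. The site is shown because it lies in the last exon of a zinc finger gene, where the fingers are encoded.
2010315B03Rik last exon (chr9:124293943-124294092): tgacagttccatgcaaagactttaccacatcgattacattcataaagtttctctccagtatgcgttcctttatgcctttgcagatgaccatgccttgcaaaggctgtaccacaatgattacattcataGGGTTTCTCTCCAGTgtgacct

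For comparison, 3 sites are shown with the core of the motif of Onecut1, the liver transcription factor also called Hnf6. Capitals mark ATCAAT or ATTGAT, and overlapping matches are each counted. The share of kept sites with this core did not stand apart from the other Kap1 peaks at the same width.
Site upstream of Zfp982 (chr4:147492180-147492329): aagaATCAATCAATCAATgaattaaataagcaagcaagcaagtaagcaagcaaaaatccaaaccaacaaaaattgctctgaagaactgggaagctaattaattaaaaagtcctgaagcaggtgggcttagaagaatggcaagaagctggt
Chromosome 3 intergenic site with 2 cores (chr3:22715078-22715227): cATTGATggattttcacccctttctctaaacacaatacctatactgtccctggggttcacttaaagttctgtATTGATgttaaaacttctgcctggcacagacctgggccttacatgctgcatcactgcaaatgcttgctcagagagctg
Vmn2r7 intron (chr3:64753982-64754131): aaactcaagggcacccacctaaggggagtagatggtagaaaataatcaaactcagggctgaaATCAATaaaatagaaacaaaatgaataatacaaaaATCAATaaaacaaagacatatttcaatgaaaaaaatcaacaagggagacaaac

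The first of these held 3 cores, in an overlapping run near its left end. It lay within 1 kb of the start site of Zfp982. The last pair of sequences is the pair of kept sites with the motif of CTCF, the factor of chromatin insulators, in capitals.
Chromosome 7 intergenic site (chr7:11722146-11722295): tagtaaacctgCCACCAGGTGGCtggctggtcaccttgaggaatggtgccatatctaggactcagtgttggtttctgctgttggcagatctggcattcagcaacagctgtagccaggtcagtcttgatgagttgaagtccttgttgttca
Chromosome 12 intergenic site (chr12:18606215-18606364): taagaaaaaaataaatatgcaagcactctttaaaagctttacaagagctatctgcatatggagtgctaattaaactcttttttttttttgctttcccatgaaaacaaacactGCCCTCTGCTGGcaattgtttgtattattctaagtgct

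How the old and young peaks met at the kept sites is the rule itself and is given as a description. The sites formed 3014 pairs with 2949 different young peaks, and 2968 sites had 1 partner while 23 had 2. The paired peaks shared a median of 130 bp (quartiles 83.0 and 150 bp), and their midpoints lay a median of 66.5 bp apart. In 1236 pairs, or 41.0%, the midpoints were within 50 bp, and 18 pairs were identical at both ends. Just inside the limit, 8 pairs shared 1 bp and 74 shared 10 bp or less. Just outside it, 9 old peaks touched a young peak without sharing a base and 57 more lay 1 to 10 bp from one. On the width limit, 16 sites were 490 to 499 bp wide, and 12 overlapping old peaks of 500 to 509 bp were left out, among 654 that were 500 bp or wider. A further 96 overlapping peaks under 500 bp lay on the sex chromosomes and were left out.

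**Figure D1:**
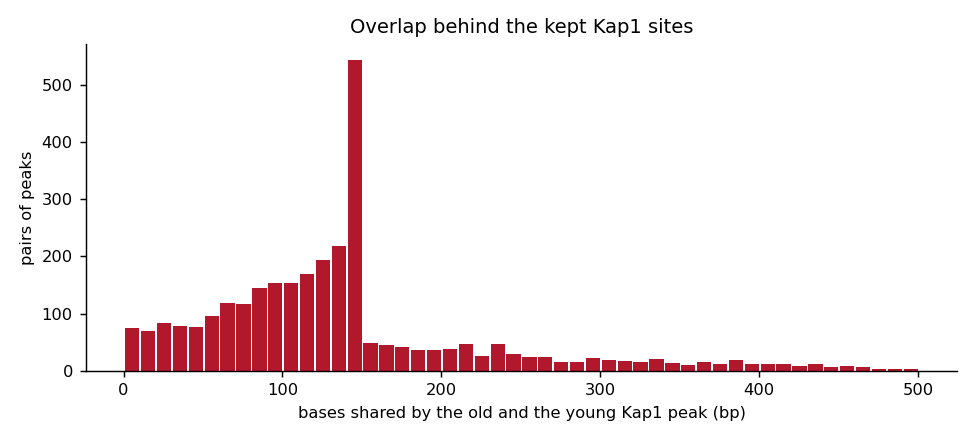
Number of pairs of old and young Kap1 peaks (y axis) by the bases they share (x axis, bp, in steps of 10 bp). The fullest step, 141 to 150 bp, holds 544 pairs, and the median is 130 bp.

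A wide peak meets a young peak more easily, so the rule itself favours wide sites, and their widths are given as a description. Exactly 150 bp, the commonest width, was the width of 1787 kept sites (59.7%), but of 94.0% of old-only and 93.2% of young-only peaks. The widest kept site measured 499 bp, and the young partner was 500 bp or wider in 453 pairs, with a maximum of 6319 bp. Because width also bears on the overlap with the other lists, the shares with other lists, places and sequence features are also given for peaks of exactly 150 bp. Shares by gene list other than zinc finger genes, and most of those by bin, are given over all widths only.

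H3K14ac, a mark of active chromatin, was found at kept sites far more often than at Kap1 peaks of one age. An old H3K14ac peak shared at least 1 bp with 380 kept sites, or 12.7% (11.6% to 13.9%), against 1.95% of old-only and 1.91% of young-only peaks. Over all old Kap1 peaks within the limits the share was 3.52%. A young H3K14ac peak lay on 492 kept sites, or 16.4% (15.2% to 17.8%), against 2.73% of old-only and 2.40% of young-only peaks, and 4.73% of all old Kap1 peaks. Among sites of exactly 150 bp the shares were 5.65% (4.67% to 6.82%) for the old and 8.45% (7.25% to 9.83%) for the young H3K14ac list. The old-only peaks of that width had 1.53% (1.35% to 1.73%) and 2.12% (1.91% to 2.35%), and their intervals did not meet those of the kept sites. Where the young partner was also 150 bp wide, the kept shares were 4.03% and 5.52%.

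H3K14ac at both ages marked 199 kept sites, or 6.65% (5.81% to 7.60%), compared with 0.296% of old-only and 0.288% of young-only peaks. Of these 199 sites, 174 were wider than 150 bp. Among the 150 bp sites 25 carried the mark at both ages, or 1.40% (0.949% to 2.06%), against 0.169% of old-only peaks of that width. These sites can still have a wider young partner. Where both the old and the young Kap1 peak were 150 bp wide, the share was lower, at 0.395% of 1267 sites. By age, 293 kept sites (9.80%) had it in the young list alone, against 2.44% of old-only and 2.11% of young-only peaks. In the old list alone it lay on 181 (6.05%), against 1.66% and 1.63%. Of the sites with the mark in the old list 52.4% also had it in the young list, and of those with it in the young list 40.4% also had it in the old list.

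Setdb1, the methyltransferase that Kap1 recruits, met few of the kept sites, though more than other Kap1 peaks. An old Setdb1 peak lay on 66 sites, or 2.21% (1.74% to 2.80%), against 0.830% of old-only peaks, 0.753% of young-only peaks and 1.03% of all old Kap1 peaks. A young Setdb1 peak lay on 147 sites, or 4.91% (4.20% to 5.75%), against 1.85% of old-only peaks, 1.81% of young-only peaks and 2.29% of all old Kap1 peaks. At exactly 150 bp the kept shares were 1.45% (0.995% to 2.12%) for the old list and 3.86% (3.06% to 4.86%) for the young list, with 0.798% and 1.83% among old-only peaks of that width. The young Setdb1 list holds far more peaks than the old one, so list size and age cannot be told apart in these shares. Setdb1 peaks of both ages met 21 kept sites (0.702%), of which 1 was 150 bp wide, against 0.0398% of old-only and 0.0535% of young-only peaks. A Setdb1 peak of either age lay on 192 kept sites (6.42%), against 2.64% and 2.51%.

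Setdb1 was most frequent at kept sites with H3K14ac at both ages. Of the 199 sites with H3K14ac at both ages, 37 or 18.6% (13.8% to 24.6%) also had a Setdb1 peak of either age, compared with 121 of the 2318 sites without H3K14ac, or 5.22% (4.39% to 6.20%). Sites with H3K14ac at one age had Setdb1 at 34 of 474, or 7.17% (5.18% to 9.86%), an interval that meets that of the unmarked sites. At 150 bp the counts were 4 of 25 (16.0%, 6.40% to 34.7%) with the mark at both ages, 11 of 202 (5.45%, 3.07% to 9.49%) at one age and 79 of 1560 (5.06%, 4.08% to 6.27%) without it. At that width the intervals of sites marked at both ages and at one age overlap. Neither mark nor factor was found at 2197 kept sites, or 73.5%, so most kept sites carried Kap1 peaks alone in these lists. For old-only and young-only peaks that share was 93.1% and 93.6%. Among 150 bp peaks it was 82.9% (81.1% to 84.6%) for kept sites, 94.1% for old-only and 94.7% for young-only peaks.

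**Figure D2:**
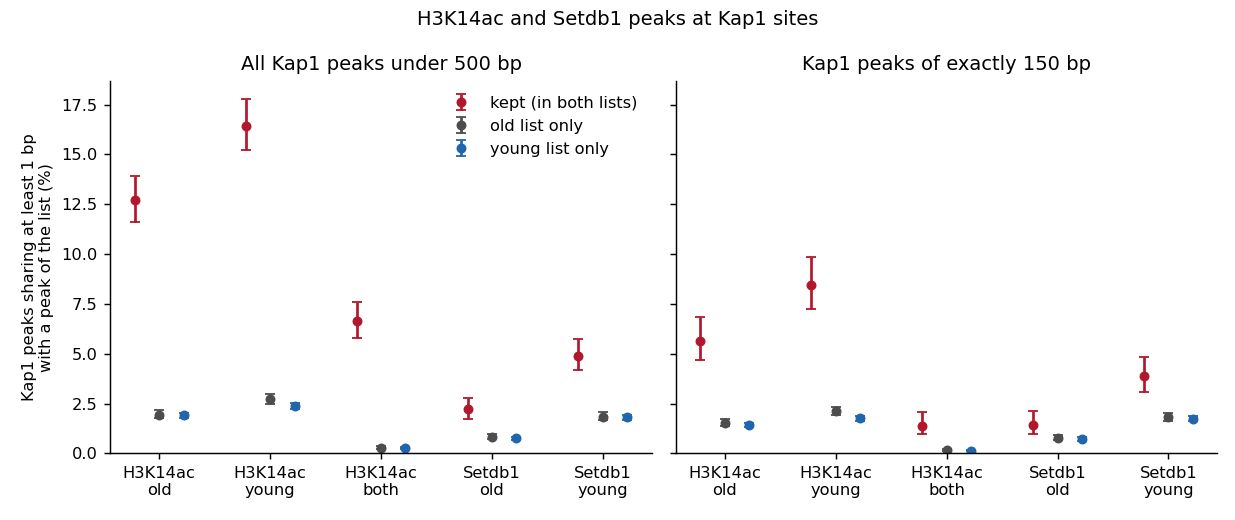
Share of Kap1 peaks (y axis, %) that share at least 1 bp with a peak of each other list, for kept sites and for peaks of the old or the young list only, over all widths under 500 bp (left) and at exactly 150 bp (right). Points are shares and bars their 95% Wilson intervals. Kept sites lie above both other sets for each H3K14ac list, for example at 16.4% against 2.73% and 2.40% for the young list.

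Both signals were most frequent at the midpoints of the kept sites. A young H3K14ac peak covered the midpoint of 14.9% of kept sites, and points 1 kb to the left and right in 6.05% and 6.85%. At 5 kb the shares were 6.25% and 5.95%. The old H3K14ac list covered 10.8% of kept midpoints and 4.98% and 4.75% of the points 5 kb to either side. For Setdb1 the young list covered 3.71% of midpoints and 0.970% and 1.00% at 5 kb, and the old list 1.60% against 0.502% and 0.368%. A central peak was also seen in the other sets, at a lower level. In old-only peaks young H3K14ac covered 2.35% of midpoints and 1.40% and 1.64% of points at 5 kb, young Setdb1 covered 1.21% against 0.585% and 0.631%, and old Setdb1 0.614% against 0.142% and 0.205%. For H3K14ac the kept sites lay above the other sets over the whole window. For Setdb1 they did so at the midpoint but not at every distance, as the plot of the other lists around Kap1 sites shows.

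**Figure D3:**
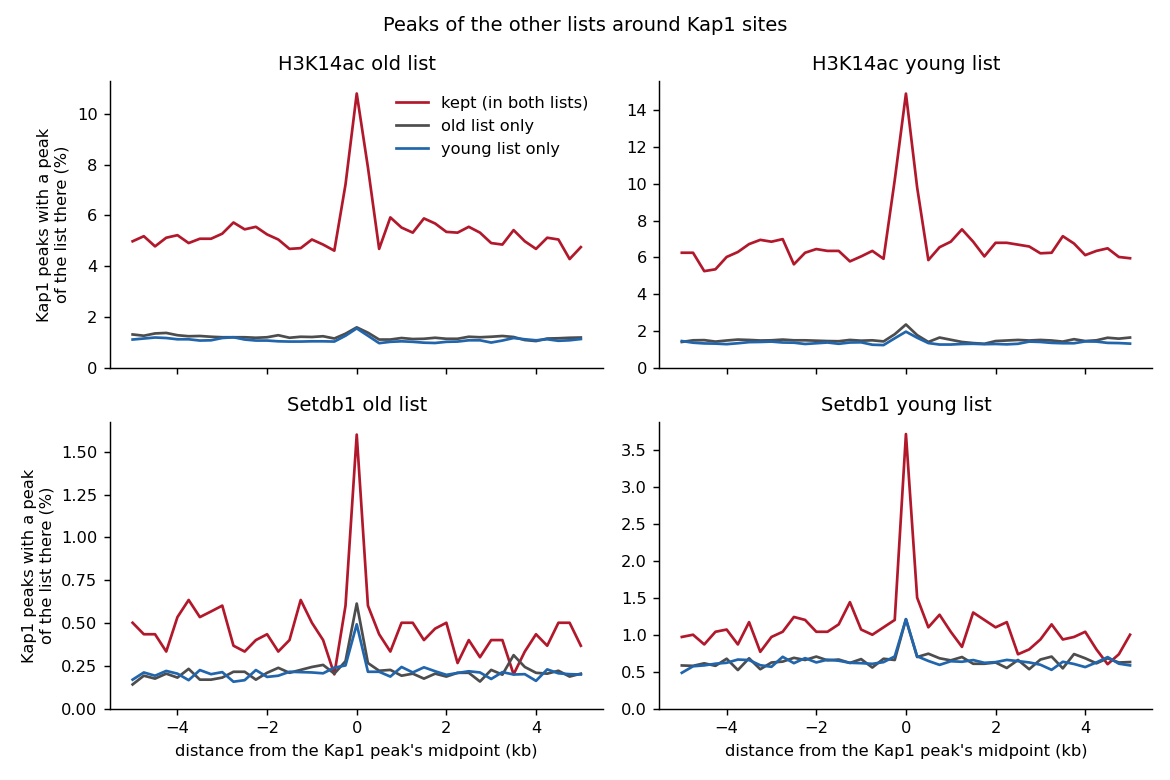
Share of Kap1 peaks (y axis, %) with a peak of the named list at each distance from the Kap1 midpoint (x axis, kb, in steps of 250 bp), for kept sites, old-only and young-only peaks. The kept line peaks at the midpoint in all 4 panels and runs above the other lines across the window for H3K14ac.

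Peaks in all 6 lists were found at 12 kept sites, or 0.401% (0.230% to 0.70%), and at 0 of 17596 old-only and 0 of 43002 young-only peaks, which by the rule lack one Kap1 list. Of the 12, 6 lay in introns, 3 over exons and 3 between genes, and none lay within 1 kb of a start site. Their widths ran from 150 to 455 bp, with 11 above 150 bp, and each met H3K14ac peaks of 500 bp in both lists. In genome order the genes they overlap begin with Camk1d, a calmodulin-dependent kinase, whose intron held a 249 bp site on chromosome 2 (5379196 to 5379444) with Setdb1 peaks of 244 bp at both ages. An intergenic site of 455 bp lay near the end of chromosome 2 (181928971 to 181929425), 83799 bp from a gap in the assembly.

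On chromosome 3 there was a site over an exon of Chia1, an acidic chitinase (106131585 to 106131831), and an intergenic site nearby (106144066 to 106144377) that held 1 hexamer. On chromosome 4 a site of 299 bp lay in an intron of the zinc finger gene Zfp980 (145680258 to 145680556), and it was the 1 site of the 12 with further copies, 2 in number. Chromosome 9 held an intergenic site (24541927 to 24542232) and an exonic site shared by Peak1, a pseudokinase gene, and Peak1os (56260353 to 56260761). The site in Mdga2 on chromosome 12 (67059397 to 67059546), a gene for a neuronal cell adhesion protein, was the one 150 bp wide. The site shared by Cmss1 and Filip1l on chromosome 16 (57391414 to 57391751) had the highest CpG density of the 12, 9.76 per 100 bases, and a GC content of 66.3%. The last 3 were an intron of Kctd16, which encodes a subunit of the GABA-B receptor, on chromosome 18 (40307980 to 40308362), an intron of Fbxw4 on chromosome 19 (45650019 to 45650322), and an exon of Csf2ra, a cytokine receptor, near the end of chromosome 19 (61224273 to 61224573). Of the 12 sites, 8 lay outside the Mb bins that are rich in kept sites and had no second copy.

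By place, 59.0% of kept sites lay between genes, 26.1% in introns, 6.19% over exons and 8.76% within 1 kb of a start site. The intron share was lower than the 32.0% of old-only and 32.2% of young-only peaks, as it was at 150 bp, with 25.6% (23.7% to 27.7%) against 32.2% and 32.6%. Among wider peaks no such difference was seen, with 26.7% (24.3% to 29.3%) against 27.9% and 26.3%. At 150 bp 59.7% (57.4% to 62.0%) of kept sites lay between genes, against 56.8% and 55.7%, and 6.44% (5.39% to 7.67%) over exons, against 5.48% and 5.43%. The start site share, 262 sites (7.80% to 9.83%), was higher than the 5.67% of old-only, the 6.54% of young-only and the 6.12% of all old Kap1 peaks. For the 150 bp width it was 8.23% (7.04% to 9.59%) against 5.48% and 6.31%. Among wider peaks it was 9.55% (8.02% to 11.3%), an interval that holds the 8.66% of old-only and the 9.76% of young-only peaks. By place, old H3K14ac peaks lay on 19.5% (15.1% to 24.7%) of kept sites at start sites, on 15.3% (12.9% to 17.9%) in introns, on 10.9% (9.52% to 12.4%) between genes and on 9.73% (6.24% to 14.9%) over exons. The young list varied less by place. Young H3K14ac peaks lay on 19.8% (15.5% to 25.1%) of kept sites at start sites, on 18.3% (15.8% to 21.2%) in introns, on 15.4% (13.8% to 17.1%) between genes and on 14.1% (9.77% to 19.8%) over exons.

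The start site of a protein-coding gene lay within 1 kb of 100 kept sites, 13 of them at zinc finger genes, and 38 of the 100 carried H3K14ac at one age or both, as did 22.5% of all kept sites. H3K14ac at both ages together with Setdb1 at one age or more was found at 3 of these sites, and all 3 had further copies in the genome. They were a site at Sp140, a gene for a nuclear body protein of leukocytes, on chromosome 1 (85601065 to 85601214, old Setdb1), and a pair at AW822073 on chromosome 10 (58223869 to 58224149 with young Setdb1, and 58225285 to 58225522 with old Setdb1). A different group had at least 5 CpG per 100 bases and comprised 23 of the 100 sites, of which 1 had a second copy and 7 held the hexamer. The hexamer contains a CpG, so the choice of the group favours it. Old H3K14ac lay on 6 of the 23, young H3K14ac on 2, and Setdb1 of either age on 2. This group was singled out after its values were seen. The first in genome order were at Eya1, a transcriptional coactivator and phosphatase, Cdh7, a cadherin, Crct1, Lingo2 and Brinp1.

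Genes for zinc finger proteins held 76 kept sites, or 2.54% (2.03% to 3.17%), against 0.892% of old-only, 0.753% of young-only and 1.13% of all old Kap1 peaks. These genes, 418 in number by symbol, take up 0.525% of the bases of chromosomes 1 to 19, and 26 of them held a kept site. At 150 bp the share was 2.13% (1.55% to 2.91%) against 0.852% and 0.689%. When zinc finger genes were instead taken as the 625 genes whose coding sequence translates into at least 3 fingers, a choice made after seeing the data, 94 kept sites in 35 genes were counted, or 3.14%, against 1.27% of old-only peaks, 1.18% of young-only peaks and 1.00% of bases. Of these 94, 76 lay in introns (80.9%, 71.7% to 87.5%), which hold 89.2% of the bases of these genes and 80.8% of old-only and 79.0% of young-only peaks in them. The last exon held 13 of the 94 (13.8%, 8.26% to 22.2%). It is where the fingers are encoded, and takes up 8.03% of the bases of these genes. The last exon share of old-only peaks was 12.9% (9.17% to 18.0%) and that of young-only peaks 14.1%, and both lie inside the interval of the kept sites. Among sites of 150 bp the last exon held 11 of 47 kept sites, or 23.4% (13.6% to 37.2%), against 12.8% (8.84% to 18.2%) of old-only peaks, with intervals that overlap.

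By symbol, Zfp985 on chromosome 4 (147553277 to 147585198) held the most, 17 kept sites, beside 5 old-only and 10 young-only peaks in its span. Of the 17, 2 lay in the last exon, 4 carried H3K14ac in the old list and 6 in the young list, 2 carried young Setdb1, and 6 had a second copy. Zfp936 on chromosome 7 (43114229 to 43192109) followed with 11, beside 9 old-only and 19 young-only peaks. Of these 11 sites 0 had H3K14ac, 1 had old and 1 young Setdb1, and 3 had a second copy. Zfp984 on chromosome 4 (147753974 to 147809788) had 9, beside 8 old-only and 9 young-only peaks, with old Setdb1 on 2 and young Setdb1 on 1. Zfp950 at the end of chromosome 19 (61053840 to 61140840) had 7, beside 4 old-only and 19 young-only peaks, with young H3K14ac on 1. The next by symbol was Zfp982 with 4 kept sites. Zfp980, Zfp992, Zfp981, Zfp991 and Zfp988 on chromosome 4 and Zfp418 and Zfp772 on chromosome 7 each had 2. Counted by fingers, 2010315B03Rik on chromosome 9 had 6 kept sites and 2610044O15Rik8 on chromosome 8 had 4. Both sites in Zfp992 and both in Zfp981 had H3K14ac at both ages. The 2 sites in Zfp992 had second copies and those in Zfp981 did not.

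Imprinted genes are classical targets of Kap1. Of 78 imprinted genes, 2 held kept sites in their span (2.56%, beside 2.22% of all protein-coding genes). A kept site lay in the span or within 5 kb for 4 of the 78. These counts are by gene and not by imprinting control region, and overlapping peaks of 500 bp or wider were left out by the rule. Calcr, the calcitonin receptor, had 2, and the one near its start site on chromosome 6 (3763568 to 3763717) held 1 hexamer, 10 CpG per 100 bases and a young H3K14ac peak. Snrpn, a splicing factor gene, had 3 sites in its span or within 5 kb on chromosome 7, of which an exonic one (59985853 to 59986002) had a young Setdb1 peak and an intronic one (59994280 to 59994437) was also counted for Snurf. A site on chromosome 18 (12951282 to 12951431) lay upstream of Impact, less than 5 kb from its start. None of these sites had a second copy or a CTCF motif. The share of all kept sites inside imprinted genes was 0.134%, beside 0.153% of old-only and 0.253% of young-only peaks, and these genes cover 0.188% of bases.

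The other gene lists held small counts of kept sites, set here beside the 2.22% of all protein-coding genes with one. Of 329 vomeronasal receptor genes, which detect pheromones, 19 (5.78%) held 29 kept sites. That was 0.970% of kept sites against 0.887% of old-only and 0.723% of young-only peaks, while these genes cover 0.212% of bases. The first in genome order were Vmn2r7 with 2 sites, Vmn2r-ps159, Vmn2r18, Vmn2r23, Vmn2r24 with 3, and Vmn1r55. Of 1128 olfactory receptor genes, 12 (1.06%) held 13 sites, or 0.435%. This was below the 0.637% and 0.723% of the other sets and above the 0.306% of bases in these genes. These began with Olfr1184, Olfr1262, Olfr586, Olfr588-ps1, Olfr702 and Olfr709-ps1, with 1 site each. Of 100 cytochrome P450 genes, which oxidise drugs and steroids in hepatocytes, 6 (6.00%) held 1 site each. These were Cyp2b19, Cyp4f18, Cyp2c66, Cyp2c29, Cyp2c39 and Cyp2c69. The sites in Cyp2b19 and Cyp2c69 had young H3K14ac and a second copy. The P450 share was 0.201% of kept sites, between the 0.256% of old-only and the 0.167% of young-only peaks, while these genes cover 0.108% of bases. Of 7 Obox genes, a homeobox family on chromosome 7 that was picked after its values were seen, 3 held 7 sites, or 0.234% against 0.0739% and 0.0302%. A second copy was found for 4 of 5 sites in Obox1 and 2 of 2 in Obox2, whose spans overlap, and for 0 of 2 in Obox5. These genes lie in a 1 Mb bin with 47 kept sites, of which 12 had a second copy.

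Among 44 acute phase and complement genes 1 held a site, over an exon of Hpx, the haem carrier haemopexin. That was 2.27% of these genes, beside 2.22% of all protein-coding genes with a kept site. The site made up 0.0334% of kept sites, against 0.0170% of old-only and 0.0116% of young-only peaks in these genes. There was no kept site in the 42 lipid and apolipoprotein genes, the 27 nuclear receptor genes, the 33 genes of the Kap1 complex and its partners, the 67 protocadherin genes or the 76 histone genes. Other Kap1 peaks were also rare there. Of old-only peaks, 0.0170% lay in the lipid genes, 0.0625% in the nuclear receptor genes, 0.0284% in the Kap1 complex genes, 0.102% in the protocadherin genes and 0% in the histone genes. Of young-only peaks the shares were 0.0140%, 0.0465%, 0.0512%, 0.170% and 0%, in the same order. Protein-coding genes of any kind held 26.6% of kept sites, against 33.5% of old-only and 34.2% of young-only peaks, and cover 40.3% of bases.

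Kept sites were crowded into a small part of the genome. Chromosome 7 held the most, 479 sites or 16.0% of all, at 3.29 per Mb, and there 23.3% of the old Kap1 peaks were kept. Chromosome 4 followed with 352 sites and chromosome 12 with 244, while chromosome 11 had 24, or 0.197 per Mb, and kept 5.91% of its old peaks. The other Kap1 peaks were densest and sparsest on the same chromosomes, with 10.8 old-only and 29.0 young-only peaks per Mb on chromosome 7 and 3.13 and 8.96 on chromosome 11. In bins of 1 Mb, 38 of 2473 bins, or 1.54%, held 50% of the kept sites, and the 84 bins with at least 10 sites held 2208 of them, or 73.8%. These same bins held 23.5% of old-only and 20.7% of young-only peaks. The bins were picked by their kept sites, which by itself gives kept sites the larger share. For old-only and young-only peaks, their own fullest bins with 50% of the peaks made up 10.8% and 13.7% of all bins. The sets differ in size, which bears on such shares. The remaining 783 sites were spread thinly, with 263 bins that held 1 site each. Another kept site lay within 10 kb of 57.2% of kept sites, and another peak of the same set within 10 kb of 38.5% of the more numerous old-only and 53.1% of the far more numerous young-only peaks. Within 100 kb the order was different, with 83.2% of kept sites, 85.5% of old-only and 94.8% of young-only peaks.

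**Figure D4:**
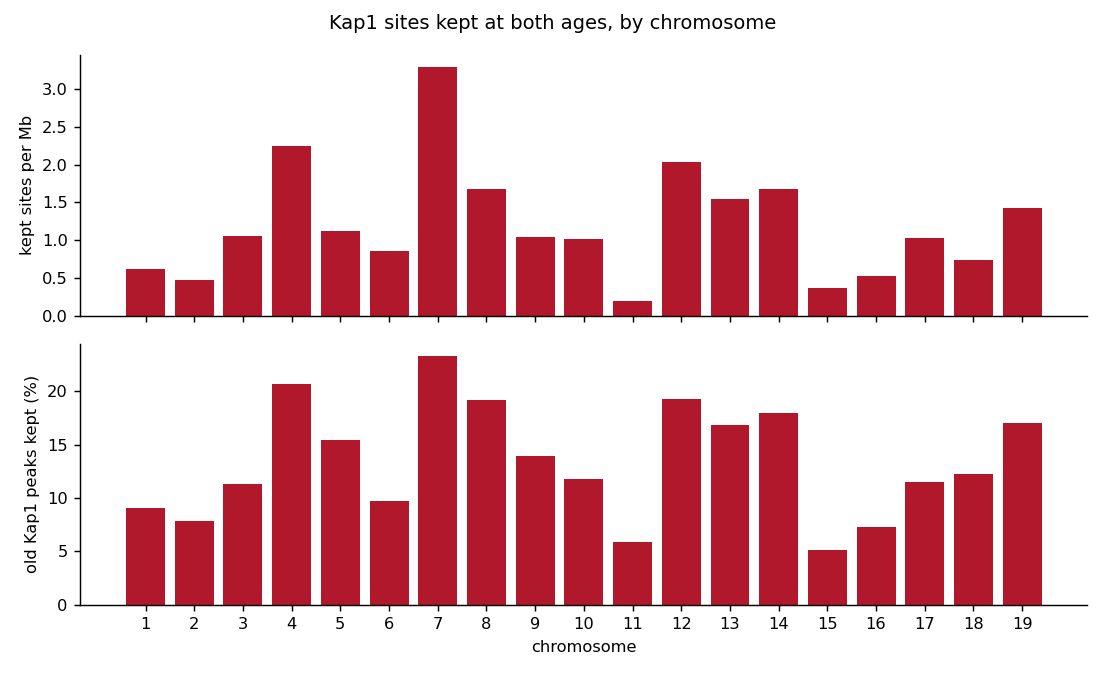
Kept Kap1 sites per Mb (upper panel) and share of old Kap1 peaks that were kept (lower panel, %) on each of chromosomes 1 to 19 (x axis). Chromosome 7 is highest in both, at 3.29 per Mb and 23.3%, and chromosomes 11 and 15 are lowest.

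The bin with the most kept sites was chromosome 4 from 147000001 to 148000000, part of the zinc finger gene cluster around Zfp985. It held 104 kept sites, 74 old-only and 101 young-only peaks, so that 58.4% of its old Kap1 peaks were kept. Picking the bin by its kept sites favours a high share. Of the 104 sites, 35 lay in zinc finger genes counted by their fingers, 49 had a second copy, 32 carried old and 33 young H3K14ac, and 6 carried old and 11 young Setdb1. Some other bins with many kept sites, not a full ranking, are given after their counts were seen. They include chromosome 12 from 19000001 (55 sites), the end of chromosome 19 beyond 61000001, with Zfp950 and Csf2ra (54 sites), and chromosome 8 from 21000001, with genes for the antimicrobial defensins (53 sites). The bin on chromosome 3 from 106000001, with the chitinase-like genes Chil3, Chil4 and Chia1, had 50 sites, of which 23 carried old and 19 young H3K14ac. Fewer did so in the bins named just before it. Old and young H3K14ac lay there on 1 and 5 sites (chromosome 12), 6 and 12 (chromosome 19) and 8 and 11 (chromosome 8). Of the 20 richest bins, which together held 989 kept sites (33.1%), 6 were the last of their chromosome and 11 held a gap in the assembly. The 6 are among the 11, and the shares over all bins were not computed.

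Repeated sequence was frequent in the same places. A second copy, defined as at least 90% of the length aligned elsewhere at 95% identity or more, was found for 609 kept sites, or 20.4% (19% to 21.8%), against 6.88% of old-only, 6.41% of young-only and 8.84% of all old Kap1 peaks. At the 150 bp width it was 18.5% (16.8% to 20.4%) against 6.12% and 5.64%. In the 84 bins with at least 10 kept sites, which were picked by their kept sites, the shares were 22.3% (20.6% to 24.1%) for kept sites, 18.9% (17.7% to 20.1%) for old-only and 19.4% (18.6% to 20.3%) for young-only peaks. At 90% identity they were 46.5%, 35.7% and 37.1% there. Outside these bins they were 14.9%, 3.21% and 3.02% at 95% identity, and 8.49%, 2.70% and 2.56% among peaks of 150 bp. A gap in the assembly lay within 100 kb of 15.6% of kept sites, 3.07% of old-only and 3.12% of young-only peaks, and at 150 bp of 10.8% (9.44% to 12.3%), 2.54% and 2.55%. More than 50% of the bases were soft-masked as repeats in 38.9% of kept sites (37.2% to 40.7%), 26.4% of old-only and 24.6% of young-only peaks, with 38.8%, 26.1% and 24.3% at 150 bp. The part of these features in the overlap between ages was not tested.

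H3K14ac and Setdb1 were also found at kept sites away from these bins, copies and gaps. Among the 634 kept sites outside the 84 rich bins, without a second copy and more than 100 kb from a gap, old H3K14ac lay on 54, or 8.52% (6.59% to 10.9%), young H3K14ac on 56, or 8.83% (6.86% to 11.3%), young Setdb1 on 33, or 5.21% (3.73% to 7.22%), and old Setdb1 on 18, or 2.84% (1.80% to 4.44%). For old-only peaks in the same places these shares were 1.06%, 1.26%, 1.67% and 0.744%. Of the 634 sites, 32.2% were still over 50% soft-masked, against 22.9% of old-only peaks there, and 20.5% had a copy at 90% identity, against 10.1%. Width was not held constant among them. At 150 bp outside the rich bins, with copies and gaps included, old H3K14ac lay on 26 of 624 kept sites, or 4.17% (2.86% to 6.04%), young H3K14ac on 4.33% (2.99% to 6.22%) and young Setdb1 on 3.37% (2.21% to 5.09%), against 0.987%, 1.24% and 1.70% of old-only peaks. Old Setdb1 lay there on 9 of 624, or 1.44% (0.761% to 2.72%), against 0.753% (0.620% to 0.915%), and these intervals overlap. Within the kept sites, old H3K14ac lay on 13.1% of those with a second copy and on 12.6% of those without. Young H3K14ac lay on 17.9% and 16.1%. H3K14ac at both ages lay on 8.70% (6.72% to 11.2%) and 6.13% (5.23% to 7.17%), with intervals that overlap. In the rich bins each H3K14ac list was met more often in every set. Young H3K14ac lay on 18.6% of kept sites, 7.36% of old-only and 7.60% of young-only peaks there, and on 10.3%, 1.31% and 1.04% outside. H3K14ac at both ages did not follow this in kept sites, with 6.61% (5.65% to 7.73%) in the rich bins and 6.77% (5.21% to 8.75%) outside. The zinc finger gene share was 3.03% in the rich bins, against 1.79% of old-only peaks, and 1.15% (0.606% to 2.17%) outside, against 0.616% (0.498% to 0.763%), where the intervals overlap. For start sites a difference from the other sets was seen outside the rich bins and not within them. Outside the rich bins 9.07% of kept sites (7.25% to 11.3%) lay within 1 kb of a start site, against 4.90% of old-only peaks, but within them 8.65% did (7.55% to 9.90%), an interval that holds the 8.16% of old-only and the 9.61% of young-only peaks.

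Base composition differed little in its medians. The median GC content was 47.3% for kept sites, 46.7% for old-only and 47.3% for young-only peaks, and the median CpG density was 0.667 per 100 bases in all 3 sets. The mean CpG density was 1.18 ± 1.78 (SD, n = 2991 sites) in kept sites and 0.947 ± 1.30 (n = 17596) in old-only peaks and 0.994 ± 1.35 (n = 43002) in young-only peaks.

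The hexamer read by Zfp57 was present in 97 kept sites, or 3.24% (2.67% to 3.94%), against 1.47% (1.30% to 1.65%) of old-only, 1.79% of young-only and 1.72% of all old Kap1 peaks. At exactly 150 bp the shares were 3.13% (2.42% to 4.05%), 1.43% and 1.76%, so the difference was also seen at one width. Outside start sites the hexamer was in 2.75% (2.20% to 3.43%) of kept sites, 1.40% of old-only and 1.59% of young-only peaks. Of the 97 sites, such as those at Soga3 and Zfp648 printed above, 22 lay within 1 kb of a start site (22.7%, 15.5% to 32.0%, against 8.76% of all kept sites). Old H3K14ac lay on 18 of the 97 (18.6%, 12.1% to 27.4%, against 12.7%) and young H3K14ac also on 18 (18.6%, against 16.4%). Young Setdb1 lay on 8 (8.25%, 4.24% to 15.4%, against 4.91%) and old Setdb1 on 3 (3.09%, 1.06% to 8.70%, against 2.21%), and 18 had a second copy (18.6%, against 20.4%). Methylation of these hexamers was not measured here.

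The Onecut core was in 251 kept sites, or 8.39% (7.45% to 9.44%), against 7.02% of old-only, 6.91% of young-only and 7.22% of all old Kap1 peaks. At exactly 150 bp the share was 6.44% (5.39% to 7.67%), and those of the other sets, 6.78% and 6.55%, lay inside its interval. The linker codons of zinc finger genes were in 4 kept sites, or 0.134% (0.0520% to 0.343%), and in 0.0923% of all old Kap1 peaks. Of the 4, 2 lay in last exons of zinc finger genes and 2 between genes. The CTCF motif was in the 2 sites printed above, or 0.0669% (0.0183% to 0.243%), against 0.0534% of all old Kap1 peaks. At these counts no difference in the linker or CTCF motif could be seen.

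**Figure D5:**
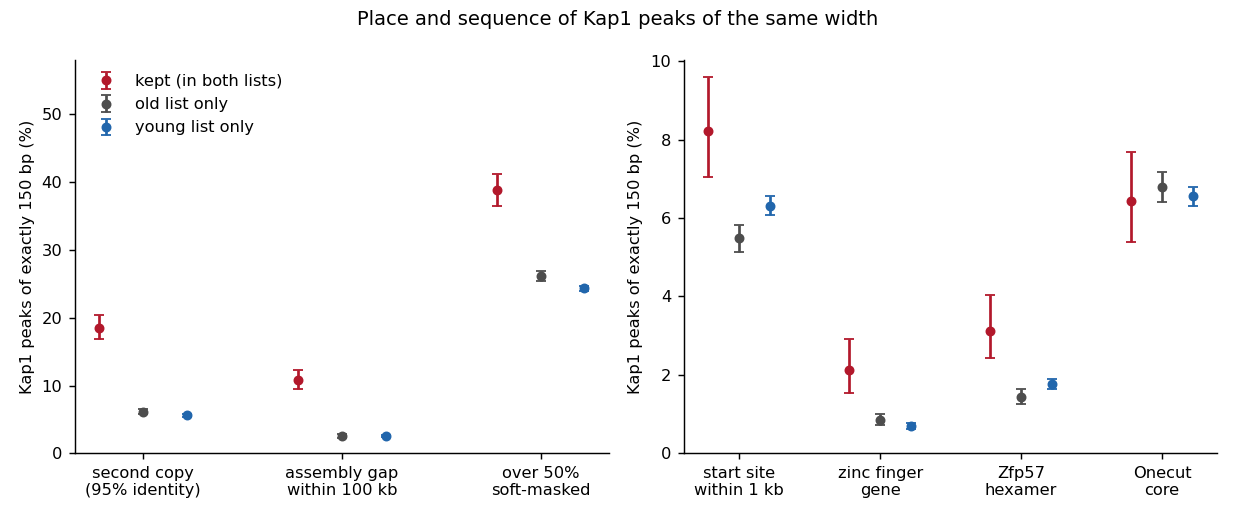
Share of Kap1 peaks of exactly 150 bp (y axis, %) with each feature of place and sequence, for kept sites, old-only and young-only peaks. Points are shares and bars 95% Wilson intervals. Kept sites lie above both other sets for second copies, assembly gaps, soft-masked bases, start sites, zinc finger genes and the Zfp57 hexamer, while the interval for the Onecut core spans the shares of both.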

How the data were processed

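ChIP-Seq peak lists of Kap1, Setdb1 and H3K14ac from young and old liver were used as deposited, 1 list per factor and age. As the authors describe, reads were aligned to mm10 by BWA, duplicate and multiply aligned reads were dropped, and the livers of each age were joined before PeakSeq called enrichment over input. The lists hold chromosome, start and end and no measured value. The members, gene lists and motifs were chosen with earlier results of these data known. Overlap was at least 1 shared bp, by code tested on simulated data. Genes and start sites came from the GENCODE basic annotation of GRCm38. Second copies were sought with minimap2 2.31-r1302 over the whole genome, and motifs were matched on both strands. Gaps were runs of unknown bases of 1000 bp or more. Further tools were scipy 1.17.1, numpy 2.4.6, matplotlib 3.10.9 and Python 3.11.15. Named were the 10 genes with a zinc finger symbol and most sites (ties by position), imprinted genes with a site within 5 kb, sites in all 6 lists, coding start sites with H3K14ac at both ages and Setdb1, the fullest bin, and the first 6 genes of each other list. Other bins, further zinc finger genes, Obox genes and the CpG-rich start sites were picked after their values were seen, as were the comparisons by dense bin, assembly gap and translated fingers.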

Additional observations from a re-analysis of the deposited data

How the results depend on the processing

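No paired analysis was possible because each list pools the livers of an age and carries no replicate. The H3K14ac shares moved with the width of the peaks and with the distance allowed, the start site share with its window, the second copy share with the identity asked for, and the zinc finger share with the bins rich in kept sites.

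With both peaks of the commonest width the rule kept 1267 sites. Of these 4.03% had old and 5.52% young H3K14ac, 0.395% H3K14ac at both ages, 1.42% old and 3.24% young Setdb1 and 0% Setdb1 at both ages, while 1.82% lay in zinc finger genes, 17.3% had a second copy, 6.08% the Onecut core and 0% the linker codons. With no limit on width the shares were 19.6% and 23.7% for old and young H3K14ac, 12.8% for both, 2.80% and 6.28% for old and young Setdb1, 1.21% for both, 18.8% for a second copy, 14.1% for the Onecut core, 0.412% for the linker and 9.90% for a start site. When old and young Kap1 peaks up to 500 bp apart were paired, 4759 sites were kept. When the other lists could lie up to 500 bp from the 2991 sites, old H3K14ac was counted on 19%, young on 23.6%, both on 11.1%, old Setdb1 on 3.88%, young on 8.53% and both on 1.24%. When 50% of both peaks had to be shared, 1628 sites were kept, with 2.89% old Setdb1, 24.1% second copies and 0% CTCF motif. With all peaks given a width of 200 bp, centred as before, H3K14ac lay on 10.1% in the old list, 13.6% in the young list and 5.42% in both. Start sites within 5 kb gave 30.4%, and copies at 90% identity gave 43.0%.

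The next alternatives were chosen after seeing the data. Without sites within 100 kb of an assembly gap, young H3K14ac was at 14.9%, both ages at 5.54%, second copies at 18.8% and the linker at 0.0396%. Without the 1 Mb bins of 10 or more kept sites, old H3K14ac was at 9.96%, young at 10.3%, old Setdb1 at 2.81%, both Setdb1 lists at 1.15%, zinc finger genes at 1.15%, second copies at 14.9%, the hexamer at 4.09%, the Onecut core at 5.62%, and the linker and CTCF motif at 0% each. The other 67 values stayed inside the 95% interval of the main share, within 1.5 times the number of sites or, for medians of composition, within 1 SD. The planned count of fingers in a protein table was not run, since no such table was used here, and translated coding sequences took its place. The cause of these shifts was not tested. Depth was unknown, so a missing peak may be a region below the limit of the caller, and 1 pooled list per age leaves no error between livers.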
